A study of Papio anubis and Macaca mulatta with 6 samples.

Results

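MAGEB2, CTAG2, FATE1, TKTL1, RHOXF1, STK31 and SPACA1 are cancer-testis genes, and their transcripts were described here in germ cells and Sertoli cells of immature olive baboon and rhesus macaque testes. The genes were found by symbol among the genes listed for each species. All 7 were among the 34178 genes listed for the baboon and 5 were among the 21356 listed for the rhesus macaque, where MAGEB2 and CTAG2 were not analysed here. The genes had been chosen by their UMI levels in these germ and Sertoli cells, so those levels are given as a description, without a test. A germ cell was a cell with a UMI (unique molecular identifier, which marks 1 captured transcript) of at least 2 of the 6 markers DAZL, MAEL, TDRD1, TEX15, SMC1B and SOHLH1. A Sertoli cell was a cell with UMIs of AMH, INHA and SOX9 that did not meet the germ rule. These rules gave 660 germ and 6513 Sertoli cells among 23057 baboon cells, and 181 germ and 3724 Sertoli cells among 26473 rhesus cells.

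Cancer-testis antigens are proteins made mainly in the germ line of the adult testis and made again in many tumours. Germ cells present few antigens, so such proteins can be seen as foreign by the immune system when a tumour makes them. Many of these genes are on the X chromosome in families of near copies, and many are silenced by DNA methylation of their promoters in somatic cells. Sertoli cells are the somatic nurse cells of the seminiferous tubule, and in the immature testis they secrete anti-Müllerian hormone, the product of AMH.

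The series holds droplet single-cell RNA-seq of unselected testis cells from animals with no treatment named, made to define spermatogonia of immature primates. Baboon 1 gave libraries 1A and 1B, baboon 2 gave 1 library, rhesus 1 gave 1 library and rhesus 2 gave libraries 2A and 2B. Baboon 2 was made with v3 chemistry and the other libraries with v2. The testes were taken at necropsy and dissociated with collagenase and then trypsin, with the interstitial fraction washed off after the first step. The study's text and its GEO record exchange the ages of the species (newborn and 26 months against 15 and 20 months), so no age was assigned to an animal here. An animal is the replicate, and n = 2 animals per species in each mean ± SD below. Baboon animal and chemistry cannot be told apart, so the spread between baboons, in SDs and tests, includes any difference of chemistry. Depth ran from 16875294 to 49803025 UMIs per library, empty droplets included, and the median cell of a library held from 1445 to 2743 UMIs. The 3 baboon libraries held 9569, 5569 and 7919 cells and the rhesus libraries 11168, 7960 and 7345 cells. Between 1 and 123 cell barcodes were shared by a pair of libraries of 1 species, with 1 germ cell barcode shared by rhesus 2A and 2B and none by the other pairs.

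In the baboon assembly Panubis1.0, 5 of the 7 genes lie on the X chromosome, which is 71.4%, against 1149 of 33824 gene symbols (3.40%). CTAG2 lies at chrX:988163-989060, TKTL1 at chrX:1335774-1367489, FATE1 at chrX:3610741-3615648, RHOXF1 at chrX:34094751-34102275 and MAGEB2 at chrX:115228473-115232398. STK31 lies at chr4:93778962-93920396 and SPACA1 at chr6:83295515-83314125. In the rhesus assembly Mmul_10, FATE1 lies at chrX:147707613-147714906, TKTL1 at chrX:150222417-150255006, RHOXF1 at chrX:116338458-116458150, STK31 at chr3:91264385-91396541 and SPACA1 at chr4:85267198-85286187. There 3 of 5 genes lie on the X chromosome, against 618 of 15795 gene symbols (3.91%).

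The 250 bases before the annotated start of 3 rhesus genes are shown because methylation of CG dinucleotides is the known means of silencing in this gene class, and because TKTL1 and STK31 were high in rhesus germ cells while FATE1 was high in Sertoli cells. They are the RefSeq Mmul_10 sequences at chrX:147707363-147707612 (plus strand, FATE1), chrX:150222167-150222416 (plus strand, TKTL1) and chr3:91396542-91396791 (minus strand, STK31), written 5′ to 3′ on the strand of the gene, with CG dinucleotides in capitals.
FATE1: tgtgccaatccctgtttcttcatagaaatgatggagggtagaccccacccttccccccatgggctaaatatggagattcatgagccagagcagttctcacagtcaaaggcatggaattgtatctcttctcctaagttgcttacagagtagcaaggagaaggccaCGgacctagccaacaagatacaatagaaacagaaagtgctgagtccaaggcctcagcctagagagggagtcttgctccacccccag
TKTL1: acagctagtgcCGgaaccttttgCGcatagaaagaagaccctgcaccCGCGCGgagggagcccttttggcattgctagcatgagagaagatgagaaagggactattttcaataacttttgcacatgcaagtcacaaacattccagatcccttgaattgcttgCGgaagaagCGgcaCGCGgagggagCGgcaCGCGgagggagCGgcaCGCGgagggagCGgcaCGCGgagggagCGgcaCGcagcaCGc
STK31: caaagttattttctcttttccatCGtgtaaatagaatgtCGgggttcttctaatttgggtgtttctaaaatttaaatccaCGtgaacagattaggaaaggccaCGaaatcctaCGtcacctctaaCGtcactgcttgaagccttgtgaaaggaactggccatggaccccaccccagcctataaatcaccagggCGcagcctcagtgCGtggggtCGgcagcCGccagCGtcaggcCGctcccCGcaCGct

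The FATE1 window held 1 CG dinucleotide, and 95.9% of the 20782 rhesus promoters of the same length held as many or more. The TKTL1 window held 21, which 28.6% of promoters matched or exceeded, and most of them stood in the repeats of its 3′ end. The STK31 window held 14, against a median of 12 over all promoters, and 45.9% of promoters held as many or more. The E-box letters CACGTG, searched on both strands, occurred 1 time in the STK31 window and 1 time in that of SPACA1, and 6.45% of all promoters hold them. The letters CAAGGTCA and ACAAAG were also searched and occurred in no window of the rhesus genes read here. They are held by 1.19% and 12.6% of all promoters. The SPACA1 window held 21 CG dinucleotides and that of RHOXF1 held 11. Methylation was not measured in these animals, and the match of letters is a description only. The RHOXF1 window is not shown because its annotated transcripts start at 3 places far apart. FATE1 has 2 annotated transcript starts, and its window lies before the outermost.

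Levels are given as CPM, the UMIs of a gene per 1000000 UMIs of the same cells. The germ label was checked before the values were read, because TEX15, a germ rule marker, also had UMIs in Sertoli cells. TEX15 stood at 67.2 ± 3.91 CPM in baboon Sertoli cells and DAZL at 14.1 ± 8.52. TEX15 had a UMI in 23.3% of baboon Sertoli cells and DAZL in 6.68%. Of the 660 baboon cells that met the germ rule, 441 also held UMIs of all 3 Sertoli markers. The 482 baboon cells with exactly 2 germ markers carried AMH at 6615 and 7630 CPM in baboon 1 and 2, against 7256 and 7943 in the Sertoli cells. DDX4, a germ cell RNA helicase that the rule did not use, was at 33.4 and 1.91 CPM in them. Cells with exactly 2 markers therefore carried AMH near the Sertoli level in both animals, and in baboon 2 they go against the germ label. The label holds better, but only in part, for the 178 baboon cells with at least 3 markers, in which DDX4 was at 121 and 123 CPM. Of these cells 49 also held UMIs of all 3 Sertoli markers, 35 of them among the 104 cells of baboon 2. AMH remained at 565 and 3561 CPM in those cells. The median number of UMIs was 12819 in baboon cells with exactly 2 markers and 3385 in baboon Sertoli cells, and the part of depth in meeting the germ rule was not tested.

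In the rhesus macaque the label held better. Only 34 of the 181 germ cells also met the Sertoli rule, and DDX4 was at 24.4 and 44.4 CPM in the germ cells of rhesus 1 and 2, against 0.679 and 0.181 in Sertoli cells. AMH was at 1293 and 192 CPM in these germ cells and at 6339 and 7200 in Sertoli cells. There were 77 rhesus cells with at least 3 germ markers, 59 of them from rhesus 1. The Sertoli label was checked with genes that the rule did not use: WT1 and GATA4, transcription factors of Sertoli cells, stood at 165 ± 42.7 and 284 ± 34.8 CPM in baboon Sertoli cells against 40.1 ± 17 and 131 ± 34.5 in stroma. DHH, a ligand of Sertoli cells, stood at 147 ± 42.4 CPM in rhesus Sertoli cells against 8.99 ± 1.65 in rhesus stroma. The label was thus checked on different genes in each species, and the paper reports that WT1 mRNAs were absent from rhesus Sertoli cells. The other genes set for this check are not given here, and of the germ check genes only DDX4 is given, so both checks are partial. Each gene below is therefore given for the stated rule (at least 2 germ markers), with values for cells with at least 3 beside it. No doublets were removed, and the part of doublets in cells that met both rules was not tested.

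**Figure D1:**
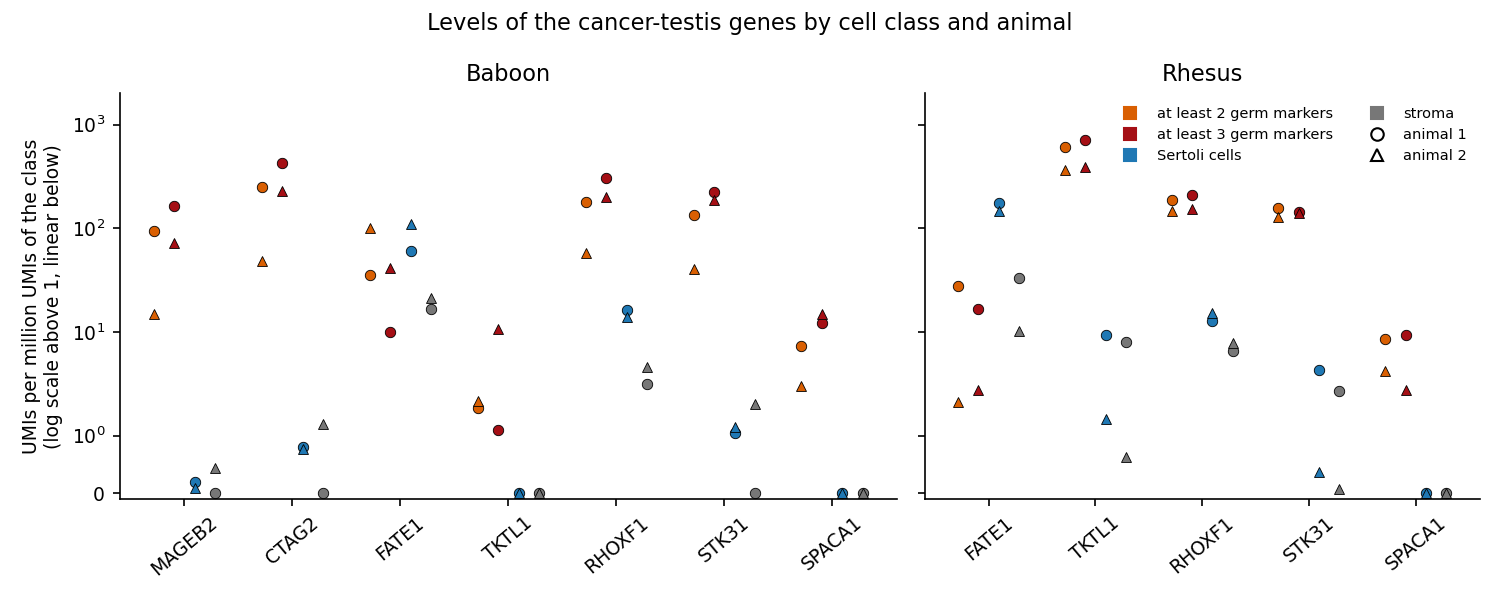
Level of each gene (CPM, log scale above 1 and linear below) in cells with at least 2 germ markers, cells with at least 3, Sertoli cells and stroma, 1 point per animal. FATE1 is the only gene of the 7 whose Sertoli points stand above its points for cells with at least 3 germ markers in both animals of each species.

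MAGEB2 and CTAG2 belong to X-linked antigen families: MAGE proteins bind E3 ubiquitin ligases, and CTAG2 is a close relative of the tumour antigen NY-ESO-1. MAGEB2 was at 101, 83.2 and 15.0 CPM in germ cells of baboon 1A, 1B and 2, and at 0.312, 0 and 0.0966 in the Sertoli cells of the same libraries, from 3, 0 and 2 UMIs. Every germ value stood above every Sertoli value, which describes a gene chosen by these levels. Baboon 2, in which 339 of 443 germ cells held exactly 2 markers, had the lowest germ value. In cells with at least 3 markers MAGEB2 was at 173, 144 and 72.6 CPM in the 3 libraries, so the libraries of baboon 1 remained above that of baboon 2. The pooled MAGEB2 level was 194-fold that of Sertoli cells for the stated rule, with a counting interval from 82.1 to 602. With at least 3 markers it was 733-fold. Pooled ratios, here and below, sum the UMIs of both animals of a species. Baboon 2 gave 9222183 of the 10863365 germ UMIs but 20698080 of the 35820335 Sertoli UMIs. The counting intervals do not cover the difference between animals. A ratio within 1 animal can lie outside them, as the CTAG2 levels by library show.

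CTAG2 was also lowest in baboon 2. It was at 241, 265 and 48.1 CPM in germ cells of baboon 1A, 1B and 2 and at 0.728, 0.907 and 0.773 in Sertoli cells, a ratio of pooled levels of 100.5 with a counting interval from 69.0 to 152. In cells with at least 3 germ markers it was at 406, 463 and 231 CPM, and the pooled ratio was 375. A single cell held up to 23 CTAG2 UMIs. Means over animals were 149 ± 142 CPM in germ cells, 0.783 ± 0.0145 in Sertoli cells and 0.648 ± 0.917 in stroma, so Sertoli cells and stroma did not differ beyond their spread. For MAGEB2 the corresponding means were 55.0 ± 56.6, 0.148 ± 0.0720 and 0.216 ± 0.306. Both genes have near copies in the genome, and the counting could have split or dropped reads that fit more than 1 copy.

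RHOXF1 encodes a homeobox transcription factor of the reproductive homeobox family on the X chromosome. In germ cells of baboon 1A, 1B and 2 it was at 157, 221 and 57.1 CPM, and in Sertoli cells at 14.9, 18.5 and 13.9. In rhesus 1, 2A and 2B it was at 188, 185 and 88.5 in germ cells and at 12.7, 13.9 and 16.5 in Sertoli cells. Every germ value stood above every Sertoli value in each species. This describes a gene chosen by these levels, and the share of all genes with such an order was not computed. The pooled germ level was 5.09-fold that of Sertoli cells in the baboon (counting interval 4.56 to 5.69) and 12.4-fold in the rhesus macaque (10.0 to 15.4). With at least 3 germ markers the ratios were 15.8 and 13.2.

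Unlike MAGEB2 and CTAG2, RHOXF1 also had a Sertoli level above that of stroma in every animal. It was at 15.0 ± 1.65 CPM in baboon Sertoli cells and 3.89 ± 1.02 in stroma, and at 13.9 ± 1.77 and 7.25 ± 0.925 in the rhesus classes. A UMI of RHOXF1 was found in 7.31% of baboon and 3.57% of rhesus Sertoli cells, and in 0.756% and 1.18% of stroma cells, whose median depth was 1609 and 1478 UMIs against 3385 and 2150 in Sertoli cells. After each cell was thinned to 1000 UMIs the Sertoli shares were 1.63% and 1.47%. Stroma shares at that depth are not given here, so the shares of the 2 classes are not compared at equal depth. Barcodes too shallow to be cells, which show free RNA, held RHOXF1 at 17, 5.54 and 39.7 CPM in the baboon libraries and 16.9, 10.6 and 14.3 in the rhesus libraries. The Sertoli level stood above that of the free RNA in baboon 1B, rhesus 2A and rhesus 2B and below it in the other 3 libraries. Only in baboon 2 did it lie outside the counting interval of the free RNA (19.8 to 71.0), and the free RNA value of baboon 1B rests on 1 UMI. The part of free RNA in the Sertoli level was not tested.

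STK31, on an autosome, encodes a kinase-like protein with a Tudor domain made in germ cells. It was at 128, 150 and 40.6 CPM in germ cells of baboon 1A, 1B and 2, and at 0.832, 1.45 and 1.21 in Sertoli cells. In rhesus 1, 2A and 2B it was at 156, 113 and 155 in germ cells and at 4.30, 0.712 and 0 in Sertoli cells. The pooled ratios were 48.0 (counting interval 35.0 to 67.6) and 69.6 (44.3 to 115). In cells with at least 3 germ markers STK31 was at 225 and 190 CPM in the baboon animals and at 144 and 139 in the rhesus animals. A single baboon cell held up to 32 STK31 UMIs. Sertoli cells (1.13 ± 0.106 and 2.33 ± 2.79 CPM) and stroma (1.01 ± 1.43 and 1.39 ± 1.86) did not differ beyond the spread of the animals in either species.

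TKTL1, a relative of the sugar-phosphate enzyme transketolase, was the gene with the largest difference between the species tables. In rhesus 1, 2A and 2B it was at 608, 332 and 415 CPM in germ cells and at 9.28, 2.14 and 0.734 in Sertoli cells, a pooled ratio of 107 with a counting interval from 80.1 to 146. A UMI of TKTL1 was found in 75.1% of rhesus germ cells and in 93.5% of those with at least 3 markers, against 0.859% of Sertoli cells. In the baboon the germ level was 1.86, 1.77 and 2.17 CPM, from 2, 1 and 20 UMIs, and 16 of 660 germ cells had any. No baboon Sertoli cell held a TKTL1 UMI, and 0 of 6513 cells allows a share with a UMI of up to 0.0461%, taking 3 cells as the floor. This limits cells with a captured UMI at a median depth of 3385 UMIs, not cells that make the transcript. The baboon germ level was at least 25.3-fold that of Sertoli cells, taking 3 UMIs over all Sertoli cells as the floor. In cells with at least 3 germ markers TKTL1 was at 5.90 ± 6.76 CPM in the baboon, at least 90.6-fold the Sertoli level, and at 554 ± 234 CPM in the rhesus macaque, 119-fold. The species were counted against separate annotations, so a difference between the rhesus level (486 ± 173 CPM at the stated rule) and the baboon level (2.00 ± 0.241 CPM) cannot be told apart from one in the gene models at either rule.

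The baboon TKTL1 counts were not spread evenly over germ cells. Of 23 UMIs, 17 were in cells with all 6 germ markers, where TKTL1 stood at 21.8 CPM, and 20 were in baboon 2. Rhesus Sertoli cells and stroma held TKTL1 at 5.36 ± 5.54 and 4.31 ± 5.21 CPM, and both were higher in rhesus 1 than in rhesus 2. The free RNA of rhesus 1, 2A and 2B held 29.3, 9.81 and 2.14 CPM, the same order, and no UMI was found in the free RNA of the baboon.

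SPACA1 encodes a protein of the acrosomal membrane of sperm. It was at 8.36, 5.31 and 3.04 CPM in germ cells of baboon 1A, 1B and 2, and at 8.48, 0 and 11.1 in those of rhesus 1, 2A and 2B. It had no UMI in any Sertoli or stroma cell of either species. The share of Sertoli cells with a captured SPACA1 UMI that 0 of 6513 baboon and 0 of 3724 rhesus cells allows is 0.0461% and 0.0806%, which does not limit the share that makes the transcript, since 32 of 660 baboon germ cells, which were deeper, held one. Pooled germ levels were at least 44.0-fold and 23.4-fold those of Sertoli cells at the same floor, from 40 and 10 UMIs in germ cells. With at least 3 germ markers the level was 13.6 ± 1.86 CPM in the baboon and 6.03 ± 4.66 in the rhesus macaque.

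FATE1 encodes a protein of the contacts between mitochondria and the endoplasmic reticulum that is made in fetal and adult testis. It differed from the other 6 genes in its order. In rhesus 1, 2A and 2B it was at 174, 137 and 158 CPM in Sertoli cells and at 27.6, 3.42 and 0 in germ cells, so that the pooled germ level was 0.120 of the Sertoli level, with a counting interval from 0.0787 to 0.175. With at least 3 germ markers it was 0.0696 of the Sertoli level. Rhesus stroma held 21.7 ± 16.3, endothelial-like cells 16.2 ± 5.84 and contractile-like cells 22.7 ± 16.7 CPM. These classes did not differ from each other or from germ cells (14.8 ± 18.0) beyond their spread.

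In baboon 1A, 1B and 2, FATE1 was at 59.6, 63.1 and 110 CPM in Sertoli cells and at 32.5, 40.7 and 102 in cells that met the germ rule, so that the germ level stood below the Sertoli level in every library. Baboon 2 was highest in both classes. The ratio of UMIs pooled over the animals was nonetheless 1.03 (counting interval 0.956 to 1.1), since baboon 2 gave 443 of the 660 germ cells but 2005 of the 6513 Sertoli cells. In cells with at least 3 germ markers FATE1 was at 8.02, 14.8 and 41.6 CPM, and the ratio was 0.352 (0.281 to 0.436). Where those cells lacked a UMI of at least 1 Sertoli marker, FATE1 was at 12.9 ± 2.13 CPM, and in cells with exactly 2 germ markers and all 3 Sertoli markers it was at 96.5 ± 32.3. The FATE1 level in cells of the germ rule thus moved with AMH, and the part of Sertoli cells or their RNA in it was not tested.

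Baboon stroma held FATE1 at 18.9 ± 3.01 CPM, below Sertoli cells (85.5 ± 34.7) in both animals. A UMI of FATE1 was found in 24.5% of baboon and 24.4% of rhesus Sertoli cells and in 2.76% and 2.83% of stroma cells. At 1000 UMIs per cell the Sertoli shares were 6.97% and 12.5%, and the stroma shares at that depth are not given here. The free RNA held FATE1 at 89.6, 33.2 and 134 CPM in the baboon libraries and at 134, 132 and 131 in the rhesus libraries, above the level of stroma in every library. It also stood above the Sertoli level in baboon 1A and baboon 2 and below it in the other 4 libraries. The Sertoli level lay below the counting interval of the free RNA in baboon 1A (75.8 to 105). It lay above that interval in rhesus 1 (122 to 147) and rhesus 2B (113 to 152) and inside it in the remaining libraries. The free RNA value of baboon 1B rests on 6 UMIs. The part of free RNA in the Sertoli level was not tested. The 155 baboon cells that carried Leydig markers held FATE1 at 80.9 ± 58.1 CPM but also carried AMH near the Sertoli level, so they are not described as Leydig cells here, although they form 1 of the classes over which similar genes were sought.

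**Figure D2:**
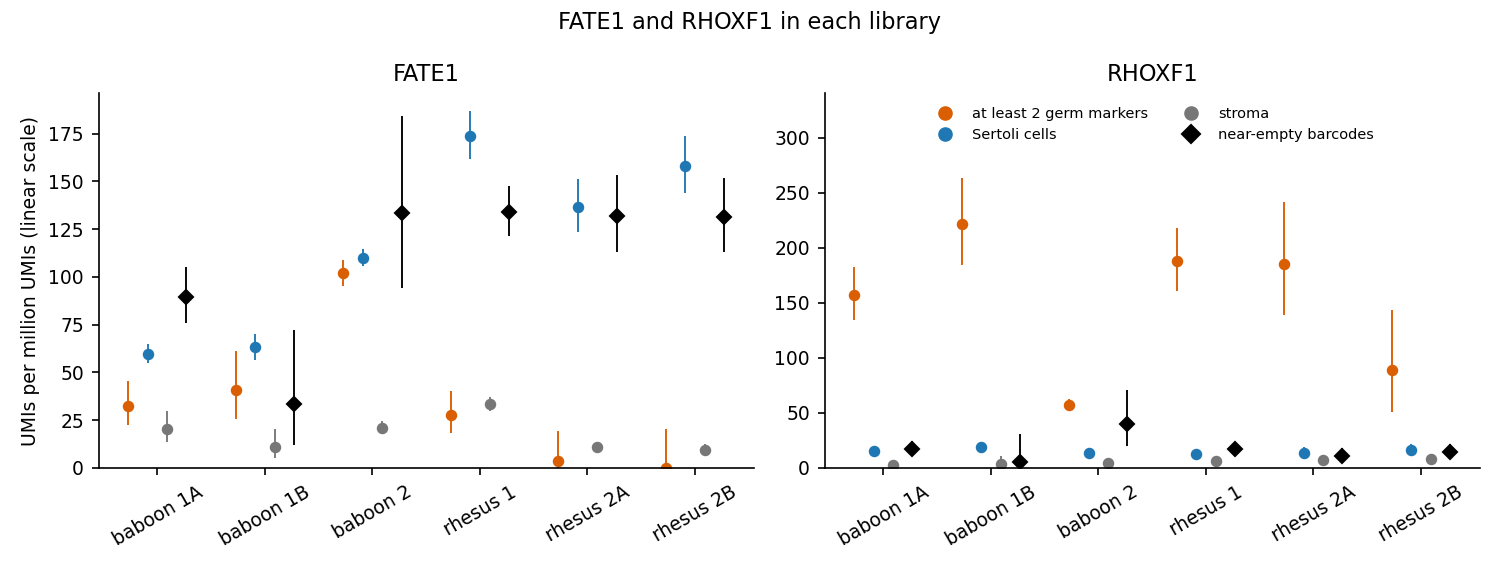
FATE1 and RHOXF1 (CPM, linear scale) in cells with at least 2 germ markers, Sertoli cells, stroma and near-empty barcodes of each library, with exact Poisson 95% intervals that cover counting error only. FATE1 in the free RNA lies between 33.2 and 134 and stands above stroma in all 6, and RHOXF1 is highest in germ cells of all 6 libraries.

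The levels were followed over the number of germ markers in a cell, from 0 to 6, with both animals of a species summed. This is a description, since the markers define the germ rule and deeper cells show more markers. In the baboon, MAGEB2 went from 1.36 CPM in cells with 2 markers to 39.7 with 3, 104 with 4, 143 with 5 and 136 with 6. CTAG2 went from 5.31 with 2 to 106 with 3 and 461 with 5, RHOXF1 from 21.1 with 2 to 80.7 with 3 and 369 with 6, and STK31 from 5.06 with 2 to 60.2 with 3 and 328 with 6. The large step of these 4 genes in the baboon thus lay between 2 and 3 markers, where AMH went from 7536 to 5547 CPM and DDX4 from 4.82 to 45.8. FATE1 ran the other way, from 112 with 2 markers to 54.2 with 3, 32.9 with 4 and 13.2 with 5.

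In the rhesus macaque the step came earlier. TKTL1 went from 7.40 CPM in cells with no germ marker to 62.0 with 1, 424 with 2 and 690 with 4, RHOXF1 from 8.92 to 37.8, 154 and 225, and STK31 from 2.13 to 23.1, 156 and 140. AMH was at 5500 CPM in rhesus cells with 1 marker and at 2060 with 2. FATE1 was at 103 with 1 marker, 33.1 with 2, 18.7 with 3 and 4.68 with 4. Only 2 and 3 rhesus cells held 5 and 6 markers.

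**Figure D3:**
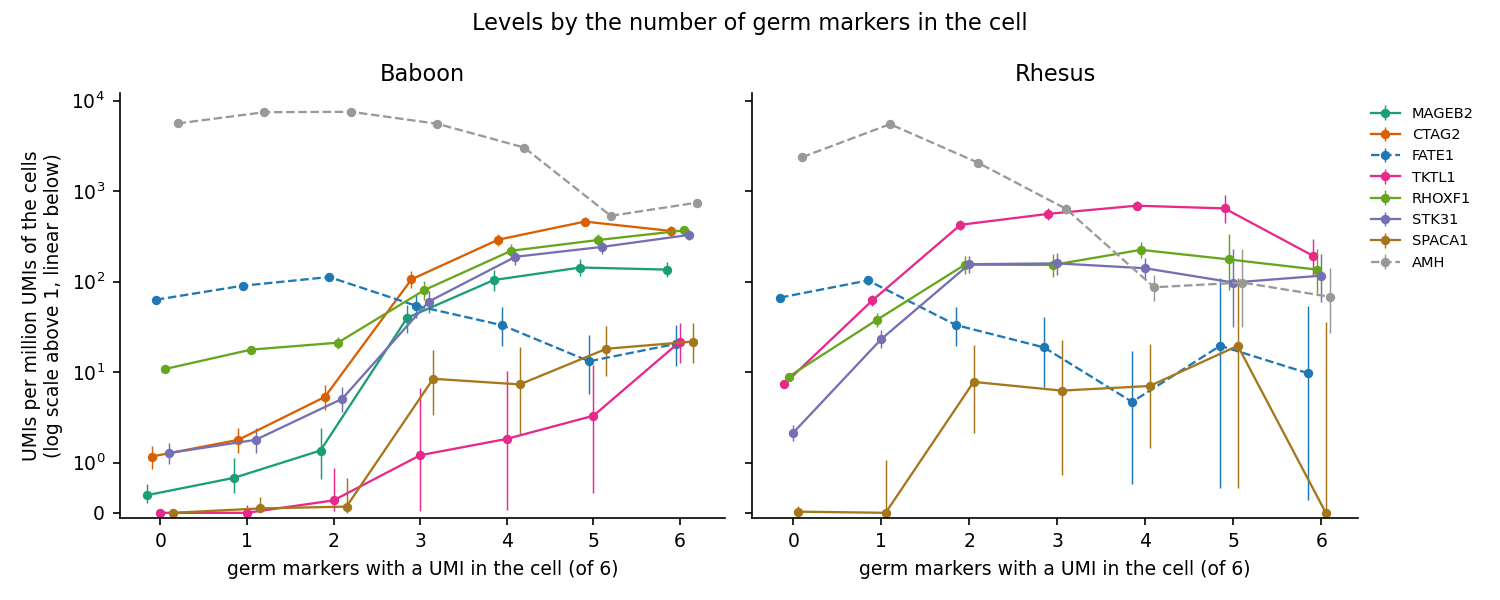
Level of the genes and of the Sertoli hormone AMH (CPM, log scale above 1 and linear below) by the number of the 6 germ markers with a UMI in the cell, with exact Poisson 95% intervals. In the baboon MAGEB2 goes from 1.36 to 39.7 between 2 and 3 markers, and FATE1 and AMH are lower in cells with 4 than with 2 markers in both species.

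The genes were also read together in single cells, leaving out FATE1. Of the 178 baboon cells with at least 3 germ markers, 34 held UMIs of 3 of the other 6 genes, 61 of 4, 27 of 5 and 3 of all 6. Of 6513 baboon Sertoli cells, 510 held a UMI of 1 of them, 20 of 2 and 0 of 3 or more. Of the 77 rhesus cells with at least 3 germ markers, 35 held 3 and 2 held all 4 of the genes read there, against 0 of 3724 rhesus Sertoli cells with 3 or more. The median depth was 12873.5 UMIs in these baboon cells against 3385 in Sertoli cells, and 10025 against 2150 in the rhesus macaque. A cell with at least 2 germ markers could not count as a Sertoli cell, so the rule also bears on these counts.

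Within the 660 baboon cells of the germ rule, MAGEB2 had a UMI in 68.2% of the 154 cells with CTAG2 and in 1.58% of the 506 cells without it, at median depths of 13324 and 12400 UMIs. CTAG2 had a UMI in 92.9% of the 113 cells with MAGEB2. STK31 had a UMI in 83.8% of the cells with CTAG2 and in 5.34% of those without. In contrast MAGEB2 had a UMI in 6.69% of the 299 cells with FATE1 and in 25.8% of the 361 cells without it, although cells with FATE1 were deeper (22072 against 8178 UMIs). RHOXF1 had a UMI in 38.1% of cells with FATE1 and in 38.2% without. Of these 660 cells, 441 held all 3 Sertoli markers, so the shares were read again in the 178 cells with at least 3 germ markers. There MAGEB2 had a UMI in 75.2% of 133 cells with CTAG2 and in 13.3% of 45 cells without, and STK31 in 88.7% and 31.1%, at median depths of 13288 and 9623 UMIs. CTAG2 had a UMI in 48.8% of 43 cells with FATE1 and in 83.0% of 135 cells without, MAGEB2 in 44.2% and 64.4%, and RHOXF1 in 58.1% and 80.0%. STK31 (46.5% and 83.0%) and TKTL1 (2.33% and 9.63%) went the same way, and SPACA1 the other (23.3% and 15.6%). Rhesus germ cells did not show this order. There TKTL1 had a UMI in 78.6% of 14 cells with FATE1 and in 74.9% of 167 without. RHOXF1 had one in 64.3% and 49.1%, STK31 in 57.1% and 53.9%, and SPACA1 in 7.14% and 5.39%, at median depths of 7955 and 4606 UMIs. These shares come from cells of 2 animals per species and carry no test.

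Germ cells were next split into spermatogonial states, a split that the levels used to choose the genes did not define. The genes and the state markers were both chosen with earlier results of these data known. A cell was put in state A when it had UMIs of more markers of the PIWIL4 set (with FGFR3, EGR4, UTF1 and ID4, genes of undifferentiated spermatogonia) than of the NANOS3 set (with KIT, DMRT1, SOHLH2 and STRA8, genes of the start of differentiation), and in state B in the opposite case. State A held 58 and 165 cells of baboon 1 and 2 and state B 73 and 130 cells. The 86 and 148 cells in neither state were left out of the comparison. At least 3 germ markers were held by 40 and 49 of the state A cells and by 25 and 29 of the state B cells. NANOS3 was at 19.1 and 4.20 CPM in state A and at 203 and 31.6 in state B. STRA8 had no UMI in state B of either animal, and KIT was at 15.1 and 2.13 CPM there. PIWIL4 had a UMI in 58.6% and 17.6% of state A cells. In baboon 2, DMRT1 had a UMI in 52.7% of state A and 86.9% of state B cells. The states are therefore a split by marker number and are not read as stages of differentiation. MAGEB2 was at 158 and 22.1 CPM in state A and at 72.3 and 11.7 in state B, and was higher in state A in both animals. RHOXF1 was at 179 and 54.6 in state A and at 256 and 75.7 in state B, and was lower in state A in both animals. STK31 was at 199 and 57.6 in state A and at 128 and 40.2 in state B. AMH was at 1693 and 6569 CPM in state A and at 3415 and 6763 in state B, so the split also moved with the Sertoli hormone in baboon 1 and both states of baboon 2 stood near its Sertoli level of 7943. The part of Sertoli cells or their RNA in the state differences was not tested.

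Over the 2 animals the test (edgeR quasi-likelihood, Benjamini-Hochberg over 11502 genes) called 0% of genes in the baboon, with 44 genes at an unadjusted p below 0.05 and 1 gene called by DESeq2. Those 44 are fewer than that cutoff would give with no difference between states. The fit left the difference between animals in its spread, so the lack of calls does not show equal levels. The log2 difference of state A minus state B was 1.12 (SE 1.16) for MAGEB2, 0.29 (SE 0.99) for CTAG2, 0.17 (SE 0.93) for FATE1, −0.52 (SE 0.78) for RHOXF1 and 0.61 (SE 0.78) for STK31, none of which passed. With the animal as a block 1.5% of genes were called, and MAGEB2 passed with a log2 difference of 1.02 (SE 0.27, edgeR adjusted p = 0.0160). The block leaves almost no sums free to estimate the spread, so this SE and p rest largely on spread shared over genes. MAGEB2 passed under no other alternative. RHOXF1 did not pass with the block (log2 difference −0.49, SE 0.22, edgeR adjusted p = 0.450), nor did STK31 (0.58, SE 0.23, edgeR adjusted p = 0.307). TKTL1 and SPACA1 had too few UMIs to be tested.

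In cells with at least 3 germ markers MAGEB2 was at 198 and 95.6 CPM in state A of baboon 1 and 2 and at 124 and 60.6 in state B. RHOXF1 was at 219 and 173 in state A and at 442 and 307 in state B, and AMH was at 543 and 2832 in state A and at 394 and 2708 in state B. The rhesus states rest on fewer markers, since UTF1, SOHLH2 and ASB9 were not read there. FGFR3 and TSPAN33 had no UMI in rhesus state A at the stated rule. PIWIL4 had one in 2.97% and 16.7% of state A cells of rhesus 1 and 2. TCF3 had one in 51.5% and 88.9% of them and none in baboon state A, so the split differs between the species. In rhesus cells with at least 3 markers RHOXF1 was at 140 and 147 CPM in state A and at 475 and 180 in state B. These came from 43 and 12 cells of state A and 8 and 3 of state B. At the stated rule RHOXF1 was at 161 and 160 in state A and at 316 and 142 in state B of rhesus 1 and 2. Rhesus 2 thus turned with the rule. No test was made in the rhesus macaque, where state B of rhesus 2 held 4 cells at the stated rule and 3 at the other. STK31 went the other way there, at 162 and 151 in state A and at 52.8 and 108 in state B. TKTL1 was at 695 and 430 in state A and at 771 and 433 in state B of the rhesus animals, a difference smaller than that between the animals.

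**Figure D4:**
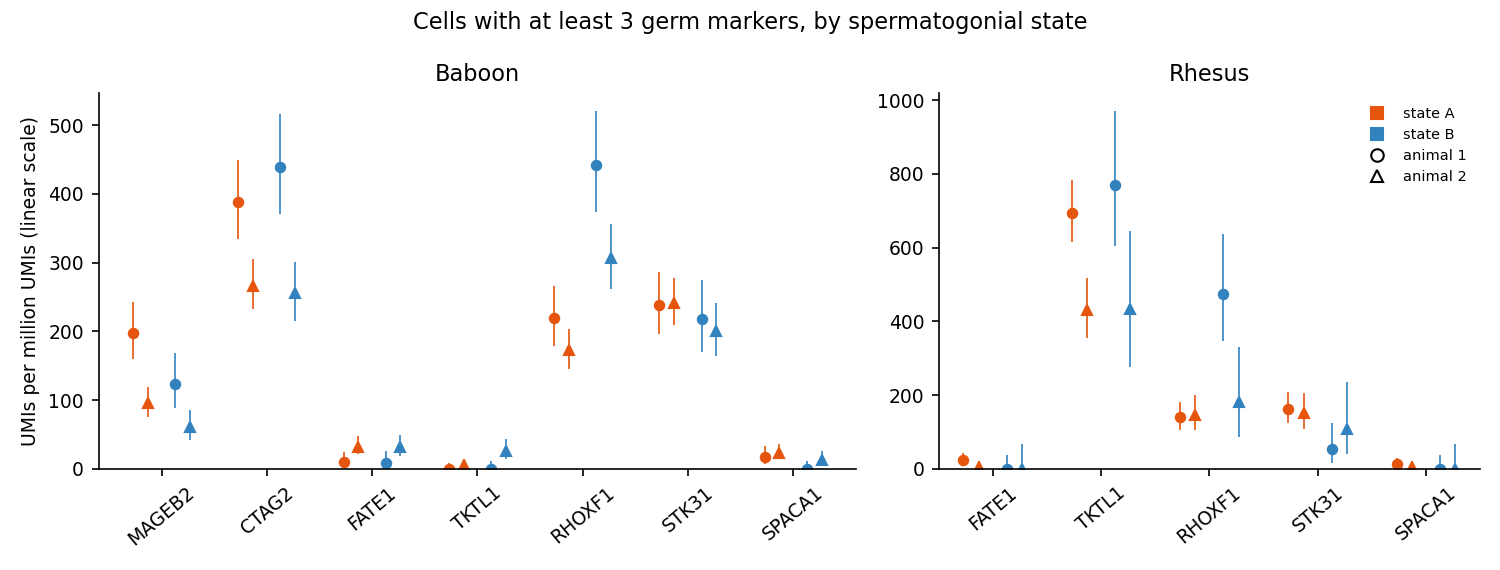
Level of the genes (CPM, linear scale) in cells with at least 3 germ markers by spermatogonial state, 1 point per animal with its exact Poisson 95% interval, which covers counting error only. RHOXF1 points of state B stand above those of state A (442 and 307 against 219 and 173 in the baboon), with 3 cells behind state B of rhesus 2, and MAGEB2 stands higher in state A than in state B of the same animal.

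For each gene the genes with the most similar levels were found by Pearson's r of log2(CPM + 1) over 14 points, 7 cell classes in 2 animals. The points of a class share the same kind of cells and those of an animal the same libraries, so r is a description. In the baboon MAGEB2 was closest to BRDT (r = 0.995), a bromodomain protein of the germ line. CTAG2 was closest to RBP4 (r = 0.987), a carrier of retinol, and TRIM71 was also near (r = 0.986). STK31 was closest to KIF2C (r = 0.998), a kinesin of cell division, with the germ cell RNA-binding gene DND1 at 0.995. TKTL1 was closest to H1-6 (r = 0.995), a linker histone of the testis. The nearest 3 genes of SPACA1 held 73 to 154 UMIs, among them ESX1 (r = 0.999), a homeobox gene. TKTL1 and SPACA1 rest on 23 and 40 UMIs in these sums, below the minimum of 50 set for similar genes. All of those UMIs were in germ cells, so r rests on the germ points and can be high for any scarce gene of germ cells.

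RHOXF1 was closest to ASB9 (r = 0.987) in the baboon, which is also 1 of the state B markers, and to SMC2 (r = 0.966), a condensin subunit, in the rhesus macaque. FATE1 was closest to CLDN3 (r = 0.977), a tight junction protein, in the baboon and to HMGN5 (r = 0.918), a nucleosome-binding protein, in the rhesus macaque. Rhesus TKTL1 was closest to FSD1 (r = 0.967). Rhesus STK31 had the cancer-testis gene XAGE5 (r = 0.992) among its nearest 3. Rhesus SPACA1, with 10 UMIs, all in germ cells, was closest to ASZ1 (r = 0.976), a gene of the piRNA pathway. No gene was among the nearest 3 of the same member in both species.

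To place the 7 genes among their class, a wider list of 165 cancer-testis genes that does not hold them was read with the same sums, 109 of which were listed for the baboon and 104 for the rhesus macaque. The marker genes PIWIL2 and DMRT1 are also on it. The list was chosen with earlier results of these data known. The filter on low counts used the germ sums too, so a gene could pass it by its germ UMIs alone. Counts, medians and p-values of the list are therefore a description of genes that reached the filter. In the baboon 77 genes of the list passed the filter. Germ cells against Sertoli cells gave 5 higher and 0 lower, against 0.349% of all 16611 genes called higher. The median log2 difference was 3.38 over the list and −0.11 over all genes, and putting the 6 genes with a class at 0 at their bound left the list median at 3.38. With the animal as a block 20 were higher and 0 lower, against 2.19% of all genes higher. Without the filter 42 of 102 were higher and 0 lower, beside 6.23% of all 25614 genes higher. DESeq2 called 39 higher, beside 7.50% of all genes, and edgeR with RLE factors called 0 of the list and of all genes, with 48 genes of the list at an unadjusted p below 0.05 in either edgeR fit. With at least 3 germ markers 49 of 81 were higher and 0 lower, against 13.1% of 17152 genes, and the list median was 4.30.

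The 5 baboon genes called higher were TFDP3, RBM46, XAGE5, LUZP4 and MORC1, each at an edgeR adjusted p of 0.0466. RBM46, a germ cell RNA-binding protein, was at 68.9 and 24.6 CPM in germ cells of baboon 1 and 2 and had 4 UMIs in all Sertoli cells (log2 difference 8.30, SE 0.78). XAGE5 was at 89.6 and 19.6 and had 7 UMIs in Sertoli cells (7.69, SE 0.92). MORC1, which acts in silencing of transposons in male germ cells, was at 60.9 and 11.4 (7.58, SE 1.01), and LUZP4 was at 46.9 and 11.5 (7.61, SE 0.97). TFDP3, at 35.3 and 8.89, had 1 UMI in Sertoli cells, and its pooled level was 462-fold that of Sertoli cells. All 5 showed the order of animals seen for MAGEB2, CTAG2 and STK31, with baboon 1 above baboon 2. Baboon 2 also differed in chemistry and held exactly 2 germ markers in 339 of 443 germ cells, against 143 of 217 in baboon 1. An order of animals cannot be told apart from one of chemistry here, and the part of the marker number was not tested. Without baboon 1A, 0 genes of the list were called and 40 of 70 were at an unadjusted p below 0.05 (edgeR).

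The other cells are those that met neither the germ nor the Sertoli rule, unassigned cells included, so Sertoli cells are not among them. Against them, baboon germ cells had 3 genes of the list higher and 1 lower, beside 0.151% of all genes higher and 0.343% lower. The higher genes were LUZP4, RBM46 and XAGE5, and the lower one was PLAC1, a gene of the placenta, at 0 and 1.19 CPM in germ cells against 18.8 and 70.4 in other cells (log2 difference −5.86, SE 0.89, edgeR adjusted p = 0.0493). With RLE factors 1 gene of the list was higher and 0 lower, beside 0.0181% of all genes higher and 0.181% lower. With the block the counts were 22 higher and 1 lower, beside 2.07% and 2.58% of all genes. With at least 3 germ markers they were 46 higher and 1 lower, beside 9.16% and 2.75%. Sertoli cells against other cells gave 0 of 77 genes by edgeR, with 8 at an unadjusted p below 0.05, beside 0.0482% of all genes called in either direction. DESeq2 gave 2 lower, beside 4.55% of all genes lower, and edgeR gave 1 lower with the block, beside 2.64% of all genes lower. The list median of Sertoli minus other cells was −0.23 on the log2 scale, against −0.015 over all genes.

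In the rhesus macaque 65 genes of the list passed the same filter. Of these, 39 were higher and 0 lower in germ than in Sertoli cells, against 13.6% of all 12695 genes higher. The median log2 difference was 4.07 over the list, 4.03 with the 4 genes that had a class at 0 put at their bound, and −0.11 over all genes. With the block 49 were higher and 2 lower, beside 19.3% and 19.5% of all genes. Without the filter 48 of 97 were higher and 2 lower, beside 11.1% and 13.6% of all genes. BRDT was at 62.5 and 55.0 CPM in germ cells of rhesus 1 and 2 and had 1 UMI in Sertoli cells (log2 difference 8.71, edgeR adjusted p = 0.0114). LDHC, the lactate dehydrogenase of germ cells, was at 75.3 and 86.7 (7.32, SE 1.22, edgeR adjusted p = 0.00944), and ACTL8 was at 91.2 and 25.4 (7.32, SE 1.87, edgeR adjusted p = 0.0269). XAGE3 was at 24.4 and 23.3 (7.39, edgeR adjusted p = 0.0128). SPAG17 and SPACA3 had no UMI in rhesus Sertoli cells and were at least 37.5-fold and 25.8-fold higher in germ cells. These bounds rest on 5 and 11 germ UMIs of SPAG17 and 7 and 4 of SPACA3 in rhesus 1 and 2. Such genes could pass the filter by germ UMIs alone, so their p-values are not given.

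Against the other cells as defined above, rhesus germ cells had 43 genes of the list higher and 1 lower, beside 12% of all genes higher and 12% lower. With the block the counts were 53 and 1, beside 17.8% and 20%. PAGE1 was at 284 and 482 CPM in germ cells against 11.5 and 2.87 in other cells (log2 difference 5.14, SE 0.82, edgeR adjusted p = 0.00821), and DDX43, an RNA helicase, had a log2 difference of 5.53 (SE 0.84, edgeR adjusted p = 0.00729). NOL4 (5.46), BRDT (5.29) and FMR1NB (5.12) were also among the largest. Sertoli cells against other cells gave 2 higher, KNL1 (1.81, edgeR adjusted p = 0.0341) and TSGA10 (1.60, edgeR adjusted p = 0.0371), and 1 lower, beside 1.05% and 2.49% of all genes. With the block there were 4 higher and 4 lower, beside 7.51% and 10.7%. The lower gene was PLAC1, at 14.7 and 14.1 CPM in Sertoli cells and 76.2 and 128 in other cells (−3.06, SE 0.38, edgeR adjusted p = 0.0118). PAGE, XAGE and MAGE genes have near copies, so their counts are uncertain in the same way as those of CTAG2.

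By chromosome, 20 of the tested baboon genes of the list lay on the X chromosome, with a median log2 difference of germ minus Sertoli cells of 6.36, and 57 lay on autosomes, with a median of 2.91. Of these, 3 X-linked and 2 autosomal genes were called higher, beside 0.349% of all genes. In the rhesus macaque 10 of 16 X-linked genes were called higher (median 5.61) and 28 of 48 autosomal genes (median 3.51), beside 13.6% of all genes. The shares over all X-linked and all autosomal genes were not computed. The list as a whole held 30 of 109 genes on the X chromosome in the baboon, 27.5%, and 26 of 99 placed genes in the rhesus macaque, 26.3%. FATE1, also X-linked, stood lower in germ than in Sertoli cells in all 6 libraries.

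**Figure D5:**
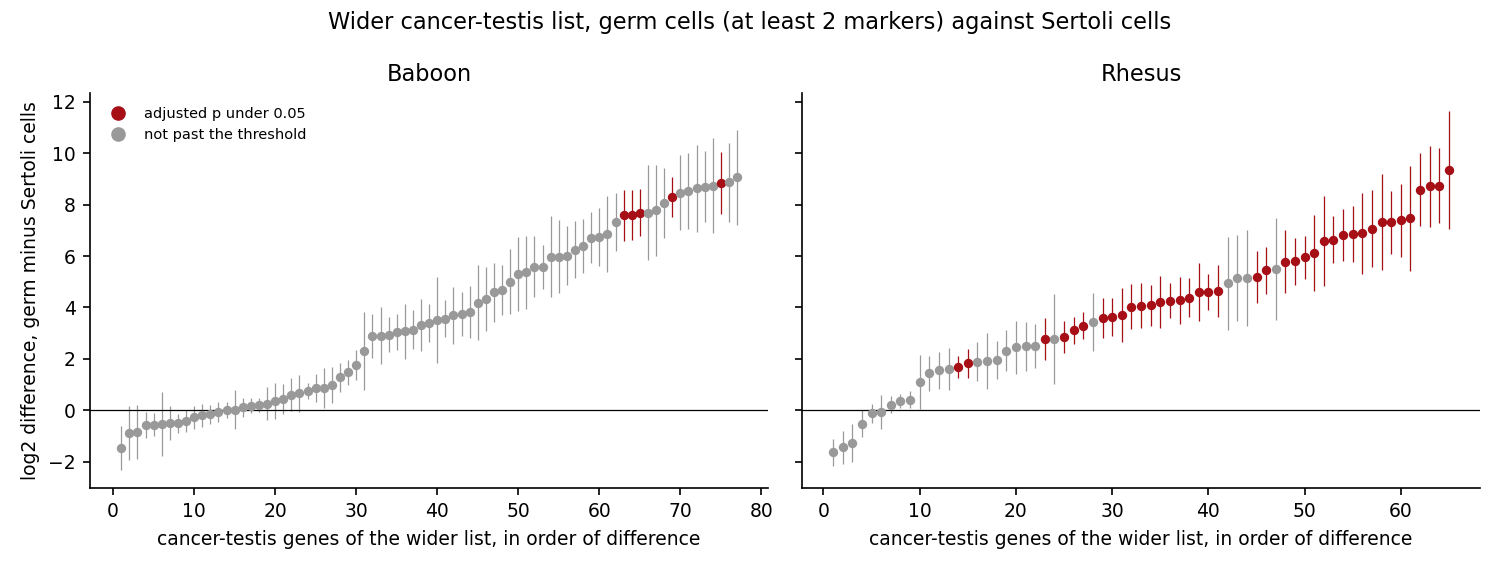
Log2 difference of germ minus Sertoli cells with its standard error for each tested gene of the wider cancer-testis list, in order of the difference, coloured where the edgeR adjusted p was below 0.05. Of 77 baboon genes 5 pass and of 65 rhesus genes 39 pass, all of them higher in germ cells. Values of genes with no UMI in a class depend on the prior count of the fit.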

How the data were processed

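The authors made the deposited tables of raw UMI counts per gene and barcode with Cell Ranger 3.1.0 from 10x libraries, against Panubis1.0 for the baboon and Mmul_10 for the rhesus macaque. The tables hold all barcodes, so cells were called here: a UMI cutoff (99th percentile of the top 5000 barcodes, divided by 10), then barcodes with at least 500 UMIs that differed from free RNA (10000 simulations, adjusted p at most 0.01), with at least 200 genes. No doublet caller was run. A cell under neither the germ nor the Sertoli rule was put in another class on at least 3 markers of that class and more than of any other, and was otherwise unassigned.

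The members, marker lists and wider list were chosen with earlier results of these data known. UMIs were summed per class and animal and given as CPM, with exact Poisson 95% intervals. Shares have exact binomial limits, and a count of 0 has a floor of 3. Intervals and floors cover counting error only. Sums of at least 10 cells were tested by the edgeR 4.0.16 quasi-likelihood test in R 4.3.3 (TMM factors, filter on low counts, Benjamini-Hochberg, threshold 0.05), with germ, Sertoli and other cells in 1 fit per species. With 2 animals, p-values rest on the spread between them. Classes of 1 animal share its cells, so classes are paired by animal: correlations of the deviations of same-animal sums were 0.409, 0.236 and 0.755 in the baboon and 0.193, 0.222 and 0.627 in the rhesus macaque, and blocked counts stand beside the unblocked ones. From the wider list, the text names the 6 genes with the largest absolute log2 difference among those past the threshold with at least 20 UMIs. Similar genes are the nearest 3 by r among those with at least 50 UMIs. Alternatives were DESeq2 1.42.0, RLE factors, no filter, the animal as a block, libraries as samples, other cell calling and class rules, and leaving out a library. Tests and cell calling were tested on simulated data. Annotation came from RefSeq. Baboon strand, baboon promoters and protein sequences were not analysed here.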

Additional observations from a re-analysis of the deposited data

How the results depend on the processing

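Counts of called genes in the baboon (58 for germ against Sertoli cells, 82 for germ against other cells, 8 for Sertoli against other cells and 0 between states) moved under most alternatives, in the same order as follows. DESeq2 gave 1246, 1193, 757 and 1, no filter on low counts 1617, 1651, 1165 and 5, and the animal as a block 365, 773, 439 and 173. RLE factors gave 0, 33 and 4 for the class contrasts, and libraries as samples, which treats libraries of 1 animal as independent, 1646, 2004 and 692. At least 3 germ markers gave 2691, 2043 and 4, and germ cells without those holding all 3 Sertoli markers 5738, 4626 and 72. At least 2 of 4 germ markers without TEX15 and DAZL, a rule added after seeing the data, gave 5613, 4426 and 46. The UMI cutoff alone gave 27 for germ and 2 for Sertoli against other cells, and 2 of 3 Sertoli markers 501 and 460. Leaving out library 1A gave 0, 76 and 35 and library 1B 44, 49 and 13, each with 0 between states.

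In the rhesus macaque (3259, 3056 and 449) the block gave 4927, 4788 and 2307 and libraries as samples 5092, 5039 and 2584. For Sertoli against other cells DESeq2 gave 1120, no filter 1731 and 2 of 3 Sertoli markers 189. Leaving out library 2A or 2B gave 2495 to 2824, 2338 to 2711 and 352 to 444.

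The cause of these moves was not tested. The state difference of CTAG2 changed sign, to −0.042 with at least 3 germ markers and −0.093 with the added rule, and that of MAGEB2 passed the test only with the block, at 1.02. The other 50 state differences of the 5 tested genes over alternatives kept their sign and side of the threshold. Of the wider-list genes named in the text, 259 results stayed called and 27 lost the call. Of the member levels 130 moved by less than the SD between animals and 38 by more, and the moves gathered in baboon germ cells: with at least 3 germ markers 6 of 7 moved, and 7 of 7 moved both without cells holding all 3 Sertoli markers and with the added rule. Of the shares of cells with a UMI 21 moved and 3 did not. Leaving out baboon 2 or rhesus 1 leaves 1 animal and no count. TKTL1 in baboon germ cells rests on 23 UMIs, and SPACA1 on 40 and 10.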
